A study of Homo sapiens with 4 samples.

Results

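The HOXC cluster is the group of 9 HOX genes on human chromosome 12, which lie in one orientation in the order HOXC13, HOXC12, HOXC11, HOXC10, HOXC9, HOXC8, HOXC6, HOXC5 and HOXC4. They are 9 of the 39 HOX genes and 9 of 20033 protein-coding genes of GENCODE release 44. Every accessible interval that touched the span from the start of HOXC13 to the end of HOXC4 (chr12:53938831-54056030, hg38) or the 50 kb on either side was taken, whatever its strength. This window of 217200 bp held 33 of the 149676 peaks of one cell line and 33 of the 118728 peaks of the other.

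Accessibility had been profiled by ATAC-seq, an assay that lets a transposase (Tn5) insert sequencing adapters wherever DNA is open. C4-2B is a human prostate adenocarcinoma line, and C4-2BER is a neuroendocrine-like line obtained from it by continuous exposure to enzalutamide, an antiandrogen, and kept in the drug. Both were grown in RPMI with fetal bovine serum, glutamine, penicillin and streptomycin. The labels name 2 libraries for each line, which the authors merged before peaks were called, so there is 1 peak list for each line and no spread between replicates. No test between the lines was therefore possible, each line is a single derivation, and a difference below compares 2 lists. Promoters of the prostate luminal genes KLK3 and TMPRSS2 and of 8 neuroendocrine marker genes, among them CHGA and SYP, each had a peak in both lists, so promoter presence did not tell the lines apart.

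HOX genes encode homeodomain transcription factors that give cells their position along the body axis. In vertebrates they sit in clusters in which the order on the chromosome follows the order of use in the embryo, and whole stretches are held closed by Polycomb or opened together. HOXC genes of the posterior end (HOXC10 to HOXC13) act in the hindlimb, tail and lower spinal cord, while the others act further forward, and several noncoding RNAs, among them HOTAIR, are transcribed from the same cluster. HOX proteins bind DNA together with partners of the PBX, MEIS and PKNOX families.

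A peak is described here by the reads over its summit, the point of highest read pileup. These were recovered as whole numbers from the deposited values, with each read counted as 200 bp long. The C4-2B list implies 30.2 M reads (M for 1000000) and the C4-2BER list 25.2 M, a ratio of 1.20, and a comparison "at equal depth" multiplies the C4-2BER reads by that ratio. The read density around a summit is the number of reads in the surrounding 10 kb over the mean of the genome, with a lowest value of 1. The rank of a peak is its percentile by −log10 p within its own list, where 100 would be the strongest. A promoter is 2000 bp either side of a transcription start site (TSS), and a site is shared where peaks of both lists overlap by at least 1 bp.

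5 sites stand for the results that follow, each shown as the 151 bases centred on its summit in the hg38 reference, forward strand, with the C4-2B summit used for shared sites. The first is the strongest shared site outside promoters (chr12:53979049-53979199, between HOXC11 and HOXC10). The second is a shared site with more reads in C4-2BER (chr12:54006088-54006238, between HOXC9 and HOXC8, within introns of longer HOXC6 transcripts). The third (chr12:53949928-53950078, between HOXC13 and HOXC12) and the fourth (chr12:53986204-53986354, in an intron of HOXC10) were called in C4-2BER only. The fifth was called in C4-2B only (chr12:54038959-54039109, in an intron of HOXC4). Capitals mark 2 overlapping matches to GGGCGGG on the reverse strand, the GC box bound by SP and KLF factors, at bases 83 to 89 and 88 to 94 of the third site. The other 4 sites hold none of the motifs searched.
shared, HOXC11 to HOXC10: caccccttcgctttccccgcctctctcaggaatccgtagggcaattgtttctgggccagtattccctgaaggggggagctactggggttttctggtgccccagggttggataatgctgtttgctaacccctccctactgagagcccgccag
shared, HOXC9 to HOXC8: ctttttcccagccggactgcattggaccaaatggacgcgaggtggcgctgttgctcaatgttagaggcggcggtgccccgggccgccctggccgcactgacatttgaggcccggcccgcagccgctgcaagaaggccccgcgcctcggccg
C4-2BER only, HOXC13 to HOXC12: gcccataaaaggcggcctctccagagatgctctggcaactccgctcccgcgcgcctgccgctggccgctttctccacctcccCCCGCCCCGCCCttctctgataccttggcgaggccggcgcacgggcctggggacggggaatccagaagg
C4-2BER only, HOXC10: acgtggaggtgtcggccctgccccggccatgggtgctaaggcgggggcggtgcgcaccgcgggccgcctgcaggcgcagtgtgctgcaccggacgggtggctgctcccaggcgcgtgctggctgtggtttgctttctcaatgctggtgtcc
C4-2B only, HOXC4: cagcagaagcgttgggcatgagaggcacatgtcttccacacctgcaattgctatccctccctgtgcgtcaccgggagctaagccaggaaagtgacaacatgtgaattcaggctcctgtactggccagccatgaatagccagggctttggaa

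The cluster was open in both lines, and the deposited lists covered nearly the same number of bases. Peaks covered 15791 bp of the window in C4-2B (7.27%) and 16037 bp in C4-2BER (7.38%), and the number of summits was 46 and 47. Of 12779 windows of the same length that held peaks in both lists, 99.0% had fewer peaks than this one in C4-2B (99.7% in C4-2BER), with medians of 11 and 8. More bases were covered in C4-2BER than in C4-2B in 19.7% of those windows. The ratio of covered bases, C4-2BER over C4-2B, was 1.02 at HOXC against a median of 0.788. The C4-2B list is the longer, and when only its strongest peaks were kept, as many as C4-2BER has, the window held 24 peaks over 13548 bp in C4-2B against 33 peaks over 16037 bp in C4-2BER. Such trimming lowers the C4-2B counts by construction, and other windows were not counted at this setting.

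The peaks of the window stood higher within the C4-2BER list than within the C4-2B list. The lists differ in length and in how far their weak end reaches, which moves a percentile by itself. Their median rank was 35.5 in C4-2B against 48.7 in C4-2BER, and 10 of 33 and 15 of 33 lay above the middle of their list. The median number of reads at the summit was 30 (C4-2B) and 40 (C4-2BER), although C4-2BER was the shallower of the lists. A −log10 q of 10 or more was reached by 14 and 19 peaks. The median fold enrichment went the other way, 4.63 in C4-2B against 3.49 in C4-2BER. That value is taken against the reads of the surrounding 10 kb, which were denser in C4-2BER.

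**Figure D1:**
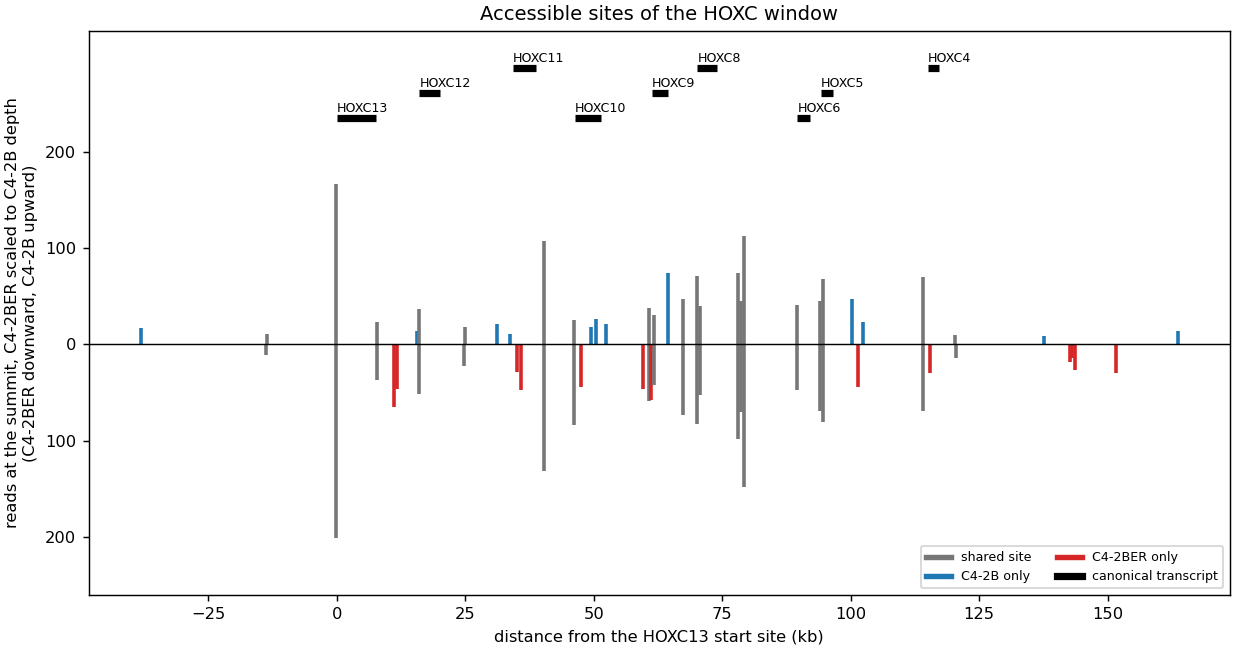
Reads at the summit of each site in the HOXC window against distance from the HOXC13 start site in kb, with C4-2B upward and C4-2BER downward, the latter scaled to the C4-2B depth. Grey lines are the 20 shared sites, blue the 12 sites of C4-2B only, red the 13 of C4-2BER only, and black bars the canonical transcripts. The tallest lines in both directions are at the HOXC13 promoter.

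Both lists held a promoter peak for all 9 members, and for 79.6% of protein-coding genes. Another 2.93% of protein-coding genes had one in the C4-2BER list alone and 2.71% in the C4-2B list alone, none of them in this cluster. The strongest promoter peak ranked higher in C4-2BER for 9 of 9 genes, against 59.2% of the 15948 genes with a peak in both lists. The median change in rank was 5.58 percentile points for the members and 0.497 for all those genes. These sizes depend on the length of the lists. With equal numbers of top peaks the HOXC11 peak dropped out of C4-2B, and the changes of the other 8 members ranged from 2.34 at HOXC13 to 62.0 at HOXC10, with 10.4 at HOXC5, 17.4 at HOXC12 and 26.4 at HOXC9. The 9 values are not independent, since neighbouring genes share peaks. By fold enrichment in place of −log10 p, 4 of 9 ranked higher in C4-2BER, by 27.5 points at HOXC10, 10.5 at HOXC13, 7.55 at HOXC6 and 0.854 at HOXC11, and with the canonical TSS of each gene alone 8 of 9 did.

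**Figure D2:**
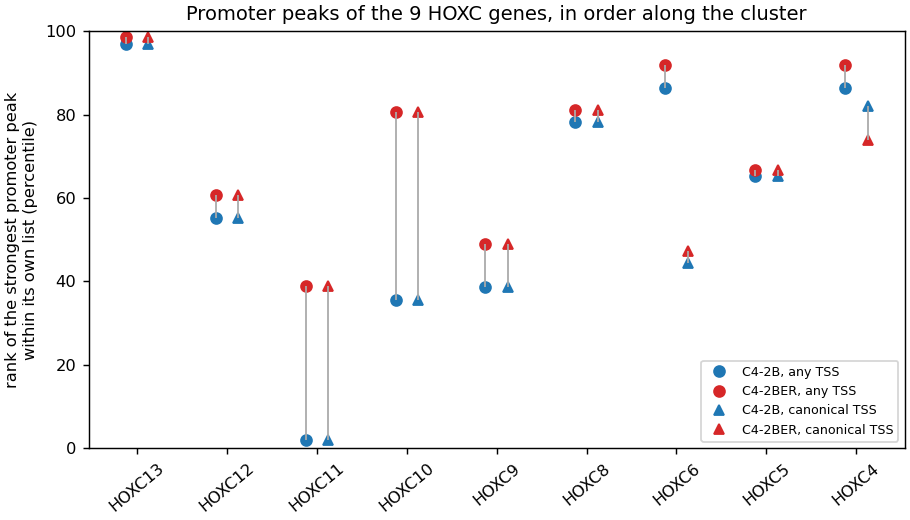
Rank percentile of the strongest promoter peak of each HOXC gene within its own list, C4-2B in blue and C4-2BER in red, for all start sites (circles) and the canonical start site alone (triangles). The widest gaps are at HOXC10, 35.5 and 80.7, and HOXC11, 1.91 and 38.7, and the canonical start site of HOXC4 is the one at which C4-2B ranks higher.

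HOXC10, a posterior HOX gene of the lumbar spinal cord and hindlimb, had the largest change in rank by −log10 p. Its promoter peak held 25 reads in C4-2B against 70 in C4-2BER. At equal depth that was 3.35 times as many, with a 95% interval of 2.10 to 5.52 that covers counting error only. The peak widened from 282 bp (chr12:53984855-53985136) to 959 bp (chr12:53984829-53985787). In C4-2B it ended just before the canonical TSS at 53985146, and in C4-2BER it ran over it. Of the 5 annotated TSSs of HOXC10, 1 lay in a peak in C4-2B and 4 in C4-2BER.

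That separate C4-2BER peak lay in the first part of the gene, at chr12:53986051-53986392, with 37 reads at its summit. It is the fourth sequence shown above, and no C4-2B peak overlapped it. The promoter bases covered around all TSSs of HOXC10 were 539 bp in C4-2B against 1301 bp in C4-2BER. Toward the 3′ end of the gene C4-2B alone had weak peaks at chr12:53988155-53988411 in an intron, with 18 reads, and at chr12:53989136-53989596 over a coding exon, with 26 reads. At the C4-2BER depth these would be 15.0 and 21.7 reads, where 21 were needed for a call there, so the first was below that number and the second just above it. The HOXC10 promoter lies over the antisense RNA HOXC-AS3, whose canonical TSS was inside the peak in C4-2BER and outside it in C4-2B. Among the other HOX genes, the ranks most like those of HOXC10, by distance in the pair of percentiles, were those of HOXD10 and HOXD11, which share a peak (49.4 and 68.1, distance 18.8), and HOXD13 (61.2 and 85.2, distance 26.1).

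HOXC11, the neighbour on the posterior side, also ranked higher in C4-2BER, and here the lines did not use the same site. In C4-2B the single promoter peak lay before the TSS at chr12:53972492-53972691, with 11 reads and a rank of 1.91, near the bottom of the list. In C4-2BER the 2 peaks lay inside the gene. They were at chr12:53973828-53974097, with 24 reads, and at chr12:53974605-53974808, with 40 reads and a rank of 38.7. The strongest peaks of the lists, 2124 bp apart, differed by 4.35 times in reads at equal depth (2.19 to 9.40). As these are different places, that ratio does not measure a change at one site, and its interval overlaps that of HOXC10, 2.10 to 5.52. By rank of reads the strongest peak stood 68.3 points higher in C4-2BER at HOXC11, again between different places, and 43.7 at HOXC10. The rank by −log10 p depended on promoter width, with a change of 36.8 points at 2000 bp but 9.15 at 1000 bp. Neither TSS of HOXC11 was covered in either list. The HOXC11 transcript had 0 bp of peaks in C4-2B but 474 bp in C4-2BER. Both C4-2BER peaks also lie at the 5′ end of HOTAIR, the long noncoding RNA read in the opposite direction across this interval.

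The promoter peaks of the 2 most posterior genes were shared. HOXC13, which acts in hair and nail, had the strongest peak of the window, chr12:53938148-53939991 in C4-2B, with 166 reads in C4-2B against 168 in C4-2BER. At equal depth the ratio was 1.21 (0.971 to 1.51), within counting error of 1. Its ranks were 97.0 and 98.6, and the peak covers the TSSs of both HOXC13 and the antisense HOXC13-AS. HOXC12 had 37 reads in C4-2B against 43 in C4-2BER at its TSS, a ratio of 1.39 (0.875 to 2.22). C4-2B also had a weak peak of 14 reads just before it, at chr12:53954252-53954451.

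HOXC9 and HOXC8, genes of the trunk, opened somewhat differently. HOXC9 had 38 reads at its strongest promoter peak in C4-2B against 49 in C4-2BER, a ratio of 1.54 (0.989 to 2.42). C4-2B had 2 peaks near the HOXC9 TSSs, covering 671 bp, and C4-2BER had 4, covering 971 bp. The added C4-2BER peaks were at chr12:53998381-53998584 (39 reads) and chr12:53999952-54000160 (48 reads), of which the second ended next to the canonical TSS at 54000161. HOXC8 had 71 reads in C4-2B against 69 in C4-2BER at a peak over its TSS, a ratio of 1.16 (0.823 to 1.64), and 2 shared peaks in each list.

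The anterior genes HOXC6, HOXC5 and HOXC4 are interleaved, and the annotation gives HOXC6 and HOXC4 long transcripts that run over their neighbours. The strongest promoter peak of both was a single shared site at chr12:54017583-54018512, with 112 reads in C4-2B against 124 in C4-2BER. Its ratio was 1.32 (1.02 to 1.73). For HOXC6 only the edge of this peak reached the promoter window, and the summits lay beyond it. At the canonical TSS of HOXC6 there were 41 and 40 reads, a ratio of 1.17 (0.736 to 1.85), and the ranks were 44.5 and 47.2. HOXC5 had 68 and 67 reads at its strongest peak, a ratio of 1.18 (0.829 to 1.68), and that peak also covers the microRNA gene MIR615.

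By rank of the strongest promoter peak on −log10 p, HOXC4 gave the one exception to the direction, and only at its canonical TSS. Near its canonical TSS the main peak (chr12:54052124-54053156 in C4-2B) held 70 reads in C4-2B against 58 in C4-2BER, a ratio of 0.991 (0.688 to 1.42), and its rank was 82.0 and 73.8. A small C4-2BER peak over the coding exon, chr12:54054162-54054424 with 25 reads, had no C4-2B partner.

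2 alternative start sites were near peaks in C4-2B alone. The TSS of HOXC6-203 at 53990624, the most upstream HOXC6 start, had 2 peaks within 2000 bp in C4-2B but 0 in C4-2BER. At the C4-2BER depth these 2 would hold 21.7 reads, where 21 were needed, and 17.6 reads, with no C4-2BER summit near enough to give a number needed. Their absence from the C4-2BER list therefore does not show that they had closed. The TSS of HOXC4-203 at 54037854 had 1 and 0, and that C4-2B peak would hold 39.3 reads, where 19 were needed. The starts of HOXC9-202, HOXC9-203 and HOXC6-204 had no peak near them in either list. Summed over all TSSs of a gene, the covered bases were higher in C4-2BER for 4 genes and lower for 5.

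The second C4-2B peak near HOXC6-203, at chr12:53991169-53991427 with 21 reads, also lies near MIR196A2, which is transcribed from between HOXC10 and HOXC9 and had no peak in its promoter window in C4-2BER. That absence, too, does not show that the place had closed. The mature product of MIR196A2, a regulator of HOX messenger RNAs, is given for reference from RefSeq (GRCh38.p14), with the seed in capitals.
hsa-miR-196a-5p: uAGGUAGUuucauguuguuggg

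At the 20 shared sites the reads could be compared directly. The ratio at equal depth, C4-2BER over C4-2B, was above 1 at 18 sites and below 1 at 2, with a median of 1.33 and a range of 0.979 to 3.35. Over all 87009 pairs of summits within 200 bp in the genome the median ratio was 0.899. By −log10 p the rank was higher in C4-2BER at only 13 of the 20 sites. The ratio was at least 1.5 at 6 of the 20 sites, against 7.67% of all pairs, and at most 1/1.5 at 0 of 20, against 27.5% of all pairs. Those pairs take in every kind of site, whereas this window is rich in promoter peaks, and shares over promoter pairs alone are not given here. The counting interval lay above 1 at 5 sites and below 1 at 0, so 15 of the 20 sites taken singly were within counting error of 1. Beside the HOXC10 promoter and the HOXC6 and HOXC4 site, the 5 included the site between HOXC9 and HOXC8 at chr12:54005940-54006322, with 47 and 61 reads and a ratio of 1.55 (1.04 to 2.32).

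The strongest shared site outside promoters did not change beyond counting error. It lay between HOXC11 and HOXC10 at chr12:53978477-53979684, its summits in both lists were 1 bp apart at 53979124 and 53979125, and it held 107 reads in C4-2B against 110 in C4-2BER, a ratio of 1.23 (0.934 to 1.62). Summits of 18 of the 20 shared sites were within 50 bp of each other.

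**Figure D3:**
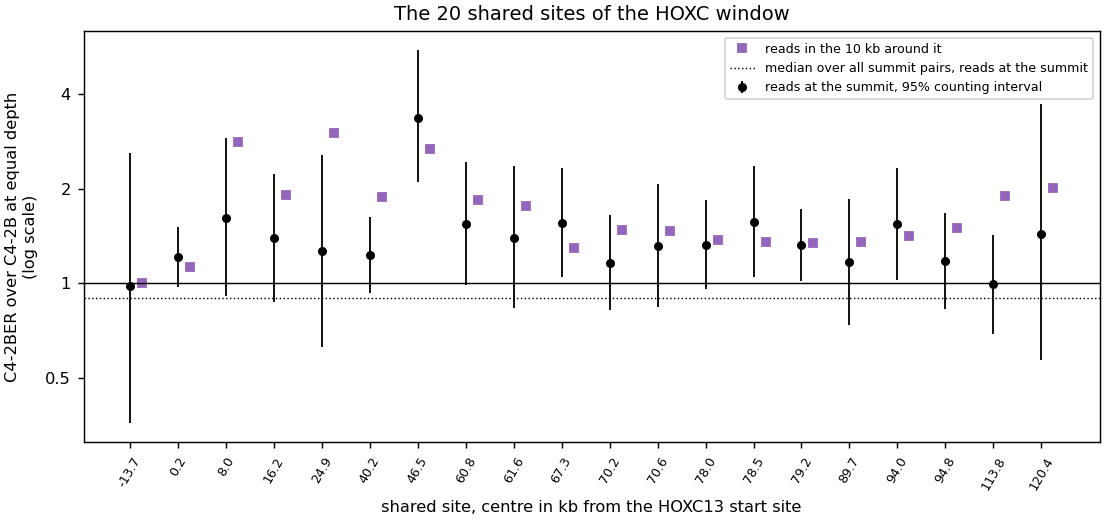
Ratio of C4-2BER over C4-2B at equal depth on a log scale for the 20 shared sites, ordered along the cluster by the distance of their centre from the HOXC13 start site in kb. Black points are reads at the summit with 95% counting intervals, purple squares the reads in the surrounding 10 kb, and the dotted line the median summit ratio over the genome, 0.899. Purple squares lie above 1 at 19 of 20 sites.

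The rise in reads was not limited to the summits. The read density in the 10 kb around shared sites was higher in C4-2BER at 19 of 20 sites, against 36.3% of all pairs, with a median ratio of 1.49 and a genome median of 1. The 20 values are not independent, since several sites lie well within 10 kb of each other and count many of the same reads. All pairs also take in every kind of site, not promoters alone. The lowest value of 1 was held by 29.0% of all C4-2B summits and 26.9% of all C4-2BER summits. Pairs with it in both lists tie at a ratio of 1 and count as not higher, which affects the genome values. The window held 46 summits in C4-2B and 47 in C4-2BER, and a wide peak counts once for each of its summits. Over these summits the median density was 3.24 times the genome mean in C4-2B against 5.43 times in C4-2BER. The median over either whole list was 1.36, but there each peak was counted once, so the measures differ. The density ratio was highest at a site in HOTAIR (3.02), at a site past the end of HOXC13 (2.81) and at the HOXC10 promoter (2.68). At HOXC13 itself it was 1.12. A denser surrounding did not always go with a stronger peak. The peak in HOTAIR ranked 32.7 in C4-2B against 7.68 in C4-2BER, and the one past HOXC13 35.9 against 34.2, while the HOXC10 promoter peak ranked higher in C4-2BER.

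The surrounding chromosome moved in the same direction by less. In the 1 Mb before the window the median density ratio over 79 summit pairs was 1.09, and in the 1 Mb after it 1.07 over 73 pairs. Over the rest of chromosome 12 it was 1 (4342 pairs), with tied pairs included. The DNA copy number of the cluster in each line, which would scale all its reads, cannot be told apart from accessibility in these lists.

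**Figure D4:**
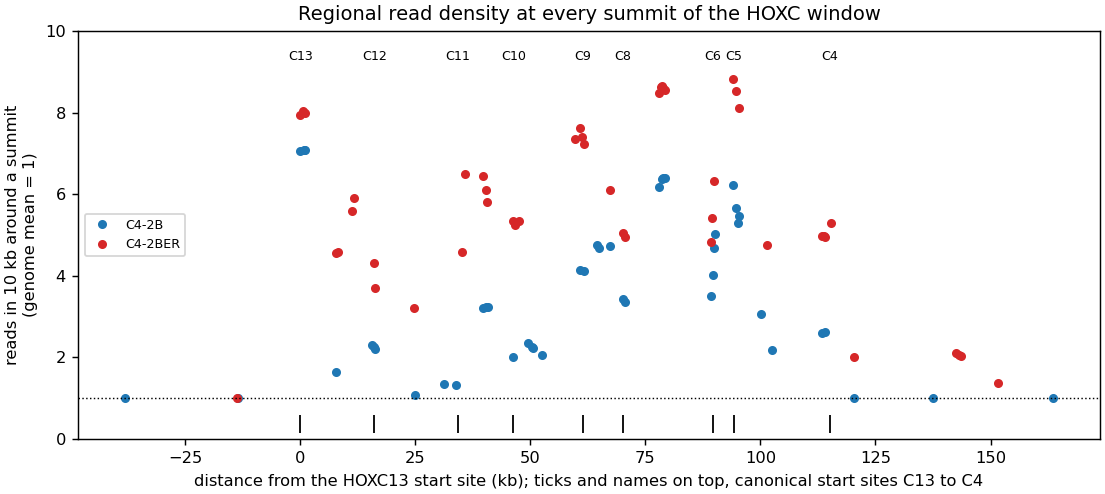
Reads in the 10 kb around every summit of the HOXC window, over the genome mean, against distance from the HOXC13 start site in kb, with C4-2B in blue and C4-2BER in red. From HOXC13 to HOXC4 the red points reach 8.82 and the blue points 7.09, and outside the genes both fall toward the dotted line at 1, the genome mean.

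In the full lists the numbers of line-only sites were close, and they were not once list length was equalised. In C4-2B 12 of 33 peaks overlapped no C4-2BER peak, where 37.7% of that whole list did not, and in C4-2BER 13 of 33 overlapped no C4-2B peak, where 20.8% did not. With equal numbers of top peaks C4-2B had 7 such peaks and C4-2BER had 16. Trimming the C4-2B list moves these counts by itself, and shares over the whole lists were not computed at that setting. Over all protein-coding genes, promoter peaks in C4-2BER only then went from 586 genes to 912, and in C4-2B only from 542 to 338. In the full lists the shared share was 63.6% in C4-2B (Wilson 95% interval 46.6 to 77.8) and 60.6% in C4-2BER (43.7 to 75.3). A −log10 q of 10 or more was reached by 2 peaks of C4-2B only and by 4 of C4-2BER only.

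The strongest line-only site belonged to C4-2B and covered the 3′ end of HOXC9, including its untranslated region (chr12:54003124-54003830). It held 74 reads, with a −log10 q of 34.4 and a rank of 73.8. The other strong C4-2B-only site lay in the HOXC4 intron (chr12:54038677-54039202, the fifth sequence above), with 47 reads and a −log10 q of 21.7. C4-2BER had its own peak close by at chr12:54040187-54040415, with 37 reads, and C4-2B a further one at chr12:54041125-54041385, with 23 reads. Intronic sequence of HOXC4 also held the shared site at chr12:54052124-54053164, so both lines had peaks at the same place there as well.

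The strongest C4-2BER-only site lay between HOXC13 and HOXC12 at chr12:53949776-53950140, the third sequence above, with 54 reads, a −log10 q of 19.1 and a rank of 66.7. A second C4-2BER-only peak stood beside it at chr12:53950349-53950634, with 39 reads. In the flank beyond HOXC4, within the noncoding gene FLJ12825, C4-2BER had 4 peaks of its own and C4-2B had 2. The strongest of them, at chr12:54090348-54090743, held 25 reads with a −log10 q of 14.8.

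Because a peak is called against its surroundings, the denser background of C4-2BER raises the number of reads a site there needs. For each line-only site with a summit of the other list within 5 kb, the reads expected at the other depth were set against the number needed there for the lowest −log10 p of that list. All 10 such C4-2BER-only sites would have passed in C4-2B with the same reads. That outcome was nearly fixed in advance, because each had already passed against a denser background in C4-2BER. It therefore gives no support to a difference between the lines, and the counts of the 2 lists are not comparable. Of the 9 such C4-2B-only sites, 4 would have passed in C4-2BER and 5 would not. The HOXC9 3′ end was among the 4, with 61.8 reads expected and 26 needed, as was the HOXC4 intron, with 39.3 and 19. The C4-2B peak before HOXC11 was among the 5, with 9.19 and 19, so its absence from the C4-2BER list does not show that it had closed.

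The bases under line-only peaks differed between the lines. In the 100 bp either side of the main summit, the median ratio of observed to expected CpG was 0.258 for the peaks of C4-2B only and 0.741 for those of C4-2BER only. It was 0.694 and 0.714 for the shared peaks of each list, and 0.221 and 0.253 over all peaks. The GC box (GGGCGGG) was within this distance of 0 of 12 peaks of C4-2B only and 5 of 13 of C4-2BER only. Values over all line-only peaks of the lists were not computed. Among the shared peaks the GC box went the other way, near 5 of 21 in C4-2B (23.8%) and 3 of 20 in C4-2BER (15%). Over the whole window it was near 5 of 33 peaks in C4-2B (15.2%) and 8 of 33 in C4-2BER (24.2%), against 7.98% and 10.8% of all peaks. Among all promoter peaks, which this window is rich in, the shares were higher, 27.1% and 31.8%, and the median CpG ratio was 0.543 and 0.661.

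The other motifs given here were too rare in 33 peaks to compare. They were searched on both strands, and matches of different motifs may overlap. The PBX-HOX motif (TGATTNAT) was in 0 peaks of the window in both lists and in 2.53% and 2.55% of all peaks, and the homeodomain motif (TAATTA) was in 1 and 4, against 3.28% and 3.22%. The forkhead motif (TGTTTAC) was in 1 and 2, against 9.79% and 7.48%, and the AP-1 motif (TGANTCA) in 3 and 2, against 10.1% and 9.22%. The core of the paired box motif (GCGTGAC) was in 0 and 0, against 0.844% and 0.985%. The CTCF motif was in 0 and 0, against 2.68% and 3.51%, and the DR5 retinoic acid element in 0 and 0, against 0.0882% and 0.0910%. A match is not evidence of binding, and the lack of one says only that these letters were not in the bases read.

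The other 3 HOX clusters, set beside HOXC with no test, gained peaks in C4-2BER. With 50 kb either side, HOXA had 19 peaks in C4-2B against 27 in C4-2BER, HOXB 35 and 45 and HOXD 14 and 22, where HOXC had 33 and 33. The covered bases were 1.53 times higher in C4-2BER at HOXA, 1.07 times at HOXB and 1.51 times at HOXD. The median read density was higher in C4-2BER at all 4, by 2.14 times at HOXA, 1.31 times at HOXB, 1.68 times at HOXC and 1.51 times at HOXD. A greater density was common to the 4 clusters, and the equal number of peaks at HOXC held for the full lists but not for equal numbers of top peaks, where it was 24 and 33. That setting was not run for the other clusters.

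Promoter ranks moved unevenly elsewhere. The strongest promoter peak ranked higher in C4-2BER for 3 of 9 HOXA genes, 4 of 8 HOXB genes, 5 of 6 HOXD genes and 9 of 9 HOXC genes, counted among the genes with a peak in both lists. A promoter peak was seen for HOXA5, HOXB4, HOXD3 and HOXD9 in the C4-2BER list alone and for HOXA2 in the C4-2B list alone, while HOXB1 and HOXD4 had none.

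**Figure D5:**
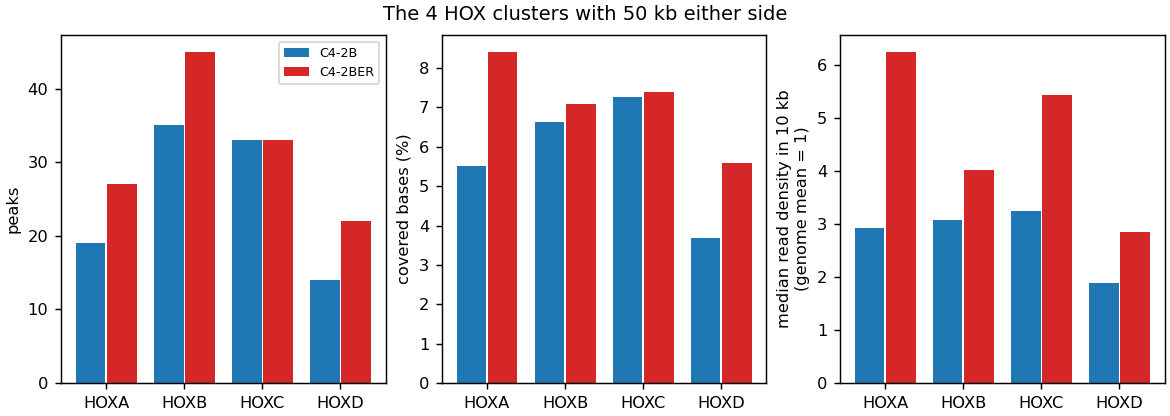
Number of peaks, share of bases covered in percent and median read density in 10 kb over the genome mean for the 4 HOX clusters with 50 kb either side, C4-2B in blue and C4-2BER in red. HOXC is the cluster with 33 peaks in both lists, while its median density rises from 3.24 to 5.43.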

How the data were processed

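Per the labels and the methods of the study, nuclei of 2 libraries a line were transposed with Tn5, and the trimmed reads went to Bowtie2 (hg38), a mapping-quality filter and removal of duplicates. The authors merged the libraries of a line and called peaks with macs2, with reads extended to 200 bp. The version, the threshold and the sign of the shift are not given in the sources used here. The deposited lists give for each summit a fold enrichment (a ratio with 1 added to both sides), −log10 p, −log10 q and a whole-number score, which was not used. The p and q values are those of the authors' peak caller, with q set inside each list.

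Reads at the summit and the background were solved from the deposited fold and −log10 p. Whole reads fitted 100% of summits in both lists, and 100% of 19204 simulated summits were recovered. Genome-wide backgrounds of 2.24 and 1.87 reads per 200 bp gave the depths, for a genome size of 2700000000 bp. An interval with several summits counts once. Intervals of ratios are exact Clopper-Pearson intervals on the split of reads and, like the Wilson intervals of shares, cover counting error only. Genes are from GENCODE 44. The RefSeq promoter table matched 2 of 9 members, HOXC4 and HOXC5, with 1 sequence that was not printed because it lies in a HOXC6 untranslated region. Python 3.11.15, numpy 2.4.6, scipy 1.17.1, pandas 2.3.3 and samtools 1.23.1 were used. No column belongs to a single library, so no fold has a replicate error. Named were the 9 members, other genes of the window at a peak, HOX genes whose promoter state differs, and the 3 HOX genes nearest to HOXC10 in rank. The members, lists and motifs were chosen with earlier results of these data known. Alternatives covered peak strength, overlap, promoter width, window, depth and rank measure. Some genes of the fixed lists and 1 motif are not reported here.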

Additional observations from a re-analysis of the deposited data

How the results depend on the processing

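With 1 merged list a line there is no replicate to leave out. No paired analysis was possible because both libraries of a line went into 1 list. Peaks absent from a list may lie under its threshold. With −log10 q of 10 or more, the window held 14 (C4-2B) and 19 (C4-2BER) peaks, 10074 bp were covered in C4-2B, and 2 and 7 peaks were line-only. With the top 50000 peaks of each list it held 7 and 13 peaks, 6116 and 9544 bp, and 1 and 7 line-only peaks. Then 4 members kept a promoter peak in C4-2B, 4 ranked higher in C4-2BER, and 1316 protein-coding genes had a promoter peak in C4-2BER only and 259 in C4-2B only. With equal numbers of top peaks, the window held 24 and 33 peaks, of which 7 and 16 were line-only, and those gene counts were 912 and 338. By fold enrichment 4 of 9 members ranked higher in C4-2BER, and the rank change was −14.5 at HOXC12, −6.58 at HOXC9, −5.66 at HOXC8, −14.3 at HOXC5 and −12.9 at HOXC4. At the canonical TSS of HOXC4 it was −8.20. The cause of these reversals was not tested, and the stricter lists hold fewer peaks by construction. Shares of line-only peaks over the whole lists were not computed at the stricter settings. The median density ratio at shared sites was 1.55 with the summit reads left out, and the median ratio of summit reads was 1.47 with the genome median set to 1, both alternatives chosen after seeing the data. Of the other values, 116 of 141, 69 stayed within the limits used, which were 1.5 times for counts. The remaining 47 were rank changes of single genes, for which only the sign was compared. Their sizes could differ much, as at HOXC11, with 36.8 points as reported, 9.15 at a promoter width of 1000 bp and 0.854 by fold enrichment.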
